A study of Solanum lycopersicum with 12 samples.

Results

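The transcripts described here were those reduced in tomato seedlings 6 h after flg22, a peptide from the flagellin of plant-associated bacteria. They comprised 65 of the 43603 probes of the array that were not controls. A probe was included if its deposited log2 level averaged at least 1 lower in flg22 than in control seedlings at 6 h, with both flg22 arrays below both control arrays. It also had to be well above background on both control arrays at 6 h and less than 1 higher in flg22 at 24 h. The limit of 300 probes was not reached. The members were thus chosen by their measured levels in flg22 and control seedlings. The differences between flg22 and control seedlings are given below as a description and are no test of the members.

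The study followed responses of tomato (Solanum lycopersicum) seedlings to elicitors of the biocontrol bacterium Bacillus amyloliquefaciens MBI600 on 2-colour Agilent arrays, with 12 arrays in 6 groups of 2. Whole seedlings 15 days old stood in liquid MS medium and received 1 µM flg22, MBI600 CFCF (culture filtrate freed of bacterial cells, 20% of the volume) or a control treatment, and were collected at 6 h and 24 h. The control is untreated by the sample titles and water elsewhere in the labels, but LB culture medium with MS in the methods. The methods mention no LB in the flg22 wells, so that a difference in medium cannot be told apart from that in treatment. RNA of 2 pooled seedlings made up each replicate, and P values measure the spread between replicate arrays, taken over all groups. The 2 arrays of a group lay on different slides, so this spread holds differences of pools and of slides together. All values are log2 green (Cy3) intensities after background correction and quantile normalization, on which a difference of 1 is a doubling of signal, and levels are not compared between probes.

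Plants perceive flg22 through the receptor kinase FLS2 at the cell surface. Perception triggers calcium influx, an oxidative burst, MAP kinase signalling and wide transcriptional change, and in Arabidopsis seedlings prolonged flg22 exposure slows growth. Expansins and xyloglucan endotransglucosylase/hydrolases (XTHs) loosen or remodel the cell wall during growth, and salicylic acid and myo-inositol derivatives are small molecules that plants use in defence and in many other processes.

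Along the selection, 69 probes averaged at least 1 lower in flg22 seedlings at 6 h, 67 of them without overlap between the groups, and the background flag removed none. The bound at 24 h removed 2, which left the 65. The corresponding number of probes at least 1 higher in flg22 seedlings without overlap was 639. At the edge of the set, LOC101055532 and LIN9 were included at -1.01 each, and the nearest excluded probes had differences of -0.998 and -0.993. Only 8 members had a difference of -2 or below. The members carry 52 sequence names, 7 of which are shared by several member probes, so the probes are not independent measurements. By the gene table used, 22 member probes matched 13 genes and 43 probes matched no gene. Sequence names of 4884 of all 43603 probes matched a gene, so most of the array is unnamed here.

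The median difference of the 65 members between flg22 and control seedlings at 6 h was -1.35, with a range from -2.95 to -1.01. On this scale with its offset, these are reductions of 7.70-fold to 2.01-fold. The median over all probes was -0.022. The median member level was 8.07 and 8.39 on the flg22 arrays, 9.02 and 8.78 on the MBI600 CFCF arrays and 9.34 and 9.88 on the control arrays at 6 h. At 24 h it was 8.59 and 8.40 in flg22, 8.95 and 8.87 in MBI600 CFCF and 9.36 and 9.31 in control seedlings. The control arrays at 6 h were thus further apart than those of the other groups, and 45 of 65 members were higher on the second of them. The same 6 h difference chose the members, so calls in this comparison only describe them and give no support. In the limma fit, 6 members passed an adjusted p under 0.1 with a log2 change of -2 or below (0.0138% of all probes did so). This count became 0 when the slide entered the fit, and 0 after leaving out any of the 4 arrays. Reductions below background concerned 1 member, A_96_P233889, which was not well above background on either flg22 array and was at least 3.51-fold lower than in control seedlings.

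The red (Cy5) channel, of which no source used here gives the RNA, differed little at the member spots between flg22 and control arrays at 6 h, with a median of -0.09 and a range from -0.41 to 0.26. Marker transcripts of root and shoot differed within the control group itself. The summed intensity of 11 probes of root nutrient transporters and an extensin (7 of 15 listed root markers matched) was 8795 and 7940 in flg22, and 4056 and 9713 in control seedlings at 6 h. The sum of 34 probes of small subunits of Rubisco and chlorophyll-binding proteins (10 of 16 listed shoot markers matched) was 1194061 and 1373369 in flg22, and 1655615 and 1047406 in control seedlings. The second control array at 6 h therefore held the lowest shoot and the highest root sum of these 4 arrays, and the part of tissue composition in the members' differences was not tested. In whole-seedling RNA, fewer cells of a type and less RNA per cell cannot be told apart.

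**Figure D1:**
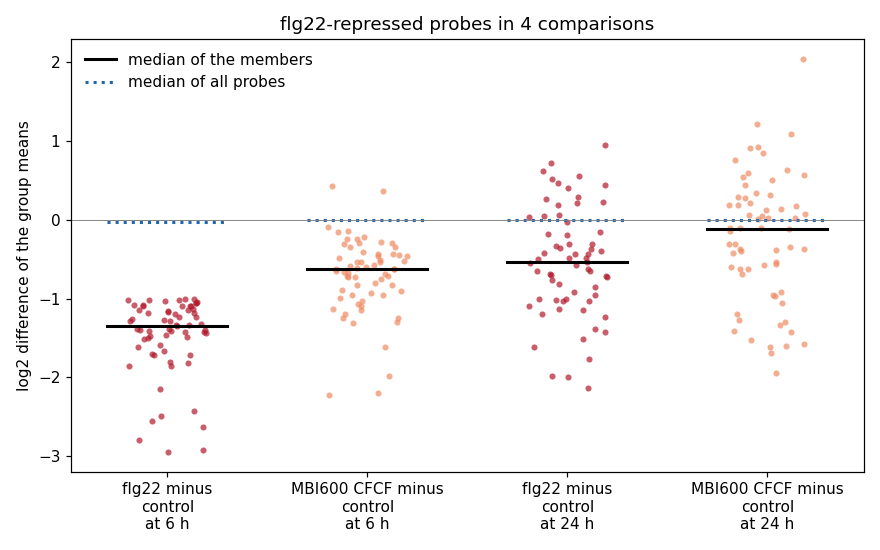
Log2 difference between treated and control seedlings for the 65 flg22-repressed probes, 1 point per probe, in 4 comparisons, with the median of the members (solid line) and of all probes (dotted line). The flg22 difference at 6 h, which chose the probes, has a median of -1.35, and the medians of the other 3 comparisons are -0.63, -0.53 and -0.12.

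At 24 h most members were closer to control in flg22 seedlings, which is given as a description because the 6 h values chose the members. The median difference between flg22 and control seedlings was -0.53, against -0.005 over all probes, and the range was from -2.14 to 0.95. The upper end was bounded by the selection. A difference of -1 or below was kept by 18 members, 31 lay between -1 and 0, and 16 were at 0 or above. Both flg22 arrays were below both control arrays for 32 of 65 members (16.5% of all probes), and above them for 4 (14.3% of all probes). A larger difference at 24 h than at 6 h in the same direction was found for 8 members. The members therefore differed widely among themselves at the later time, and the genes are ordered below by role.

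EXPB2, LOC543916, XTH9 and XTH1 act in the cell wall. EXPB2, a beta-expansin, was represented by 2 probes, both members. Probe A_96_P085969 of EXPB2 had levels of 8.44 and 9.24 in flg22, 8.33 and 8.51 in MBI600 CFCF and 9.57 and 11.75 in control seedlings at 6 h. At 24 h it had 10.24 and 9.67 in flg22, 10.75 and 9.18 in MBI600 CFCF and 11.30 and 11.82 in control seedlings. Every treated array was below both control arrays of its time, but the 2 controls at 6 h were themselves more than 2 apart. The differences of this EXPB2 probe from control were -1.82 ± 0.73 (SE) in flg22 and -2.23 ± 0.73 in MBI600 CFCF at 6 h, and -1.61 ± 0.73 and -1.60 ± 0.73 at 24 h in the same order. The other EXPB2 probe, A_96_P152996, had -1.59 in flg22 and -1.98 in MBI600 CFCF at 6 h, and -1.77 and -1.69 at 24 h. Both EXPB2 probes, which measure the same RNA pools, were thus below control in both treatments at both times. In MBI600 CFCF their adjusted p in limma was 0.949 at 6 h and 0.728 at 24 h.

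Of the XTH genes, LOC543916 and XTH9 were lower at 24 h than at 6 h relative to control in both treatments. XTH1 was so in MBI600 CFCF but not in flg22. LOC543916, for which the table lists XTH9 as another name, had levels of 8.37 and 9.50 in flg22, 9.52 and 9.38 in MBI600 CFCF and 10.39 and 9.95 in control seedlings at 6 h. At 24 h its levels were 7.83 and 7.98 in flg22, 8.78 and 8.47 in MBI600 CFCF and 10.04 and 10.06 in control seedlings. The difference of LOC543916 in flg22 was thus larger at 24 h (-2.14 ± 0.33) than at 6 h (-1.23 ± 0.33), and so was that in MBI600 CFCF (-1.43 ± 0.33 and -0.72 ± 0.33). The gene named XTH9 itself lies close to it on chromosome 12, with 1 gene of the table in between. Its member probe A_96_P199019 had differences of -1.99 ± 0.32 in flg22 and -1.20 ± 0.32 in MBI600 CFCF at 24 h, and of -1.17 and -0.67 at 6 h. Probes of such neighbouring genes of a family may hybridize to the transcripts of both, which was not tested. A second XTH9 probe, A_96_P242399, was dim throughout (6.29 and 6.53 in flg22, 6.92 and 6.42 in control seedlings at 6 h) and not a member. XTH1, another gene of the family, had 12.43 and 13.25 in flg22 and 14.00 and 13.73 in control seedlings at 6 h, a difference of -1.03 ± 0.28. At 24 h XTH1 differed by -0.57 in flg22 and by -0.63 in MBI600 CFCF, where it had differed by -0.41 at 6 h. Its other probe A_96_P012366 differed by -0.68 in flg22 at 6 h and was not a member. In MBI600 CFCF that probe differed by -0.16 at 6 h and by -0.87 at 24 h.

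SAMT encodes salicylic acid carboxyl methyltransferase, which converts salicylic acid to volatile methyl salicylate. Its probe A_96_P080439 had 9.14 and 9.19 in flg22, 10.59 and 9.17 in MBI600 CFCF and 11.02 and 11.03 in control seedlings at 6 h. At 24 h it had 10.51 and 10.56 in flg22, 11.04 and 11.56 in MBI600 CFCF and 11.90 and 11.46 in control seedlings. On this probe the replicate arrays of flg22 and of control lay within 0.5 of each other at both times. Here flg22 was below control at both, by -1.86 ± 0.40 at 6 h and -1.15 ± 0.40 at 24 h. The second SAMT probe, A_96_P008626, differed by -1.44 ± 0.31 and -0.96 ± 0.31. Its replicate arrays were further apart at 6 h, at 7.32 and 7.98 in flg22 and 8.66 and 9.51 in control seedlings. In MBI600 CFCF the SAMT probes were -1.14 and -0.61 from control at 6 h, and -0.38 and -0.91 at 24 h.

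IPS encodes inositol-3-phosphate synthase, which makes the precursor of myo-inositol. All 7 probes matched to IPS were members, with differences between flg22 and control seedlings from -1.41 to -1.18 at 6 h. Its probe A_96_P209039 had 8.71 and 8.68 in flg22, 10.14 and 9.88 in MBI600 CFCF and 9.97 and 10.22 in control seedlings at 6 h. Only flg22 was clearly low on this probe, which had the MBI600 CFCF difference nearest to control of the 7. At 24 h the same probe had 10.26 and 9.57 in flg22, 10.21 and 9.13 in MBI600 CFCF and 9.36 and 9.93 in control seedlings, with overlap of all groups. Over the 7 IPS probes the difference was 0.06 to 0.62 in flg22 at 24 h, -0.65 to -0.09 in MBI600 CFCF at 6 h and -0.10 to 0.91 in MBI600 CFCF at 24 h. For no IPS probe were the MBI600 CFCF arrays separate from the control arrays at 6 h, but the second MBI600 CFCF array was below both controls on all 7. On A_96_P165936, for example, the MBI600 CFCF arrays were at 9.78 and 8.41 at 6 h. The flg22 arrays of that probe were at 8.61 and 8.10 and its control arrays at 9.78 and 9.71. The repeated probes of IPS measure the same RNA pools and add no biological replicates.

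SP5G encodes a protein of the FT and TFL1 family that represses flowering in tomato. Its probe, A_96_P068071, had 8.81 and 9.10 in flg22, 9.41 and 9.40 in MBI600 CFCF and 10.06 and 11.25 in control seedlings at 6 h. At 24 h SP5G had 11.02 and 10.46 in flg22, 11.29 and 10.57 in MBI600 CFCF and 10.49 and 10.19 in control seedlings. Both treatments were below control at 6 h, by -1.70 ± 0.39 in flg22 and -1.25 ± 0.39 in MBI600 CFCF, and neither was at 24 h (0.40 and 0.59). The MBI600 CFCF arrays alone, which the selection did not use, averaged 1.52 ± 0.39 higher at 24 h than at 6 h for SP5G, with an adjusted p of 0.317 in limma.

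Genes of lipid transfer and seed storage were the most variable. 7k-LTP, a lipid transfer protein gene, had 8.83 and 10.09 in flg22, 9.52 and 10.60 in MBI600 CFCF and 12.36 and 12.16 in control seedlings at 6 h, differences of -2.80 ± 0.95 and -2.20 ± 0.95. At 24 h the flg22 arrays of 7k-LTP were at 9.61 and 12.94, on either side of the control arrays at 10.28 and 10.36. Vicilin, a seed storage globulin, had 2 member probes among its 5. Its probe A_96_P090389 had 6.09 and 6.98 in flg22, 9.09 and 6.11 in MBI600 CFCF and 8.50 and 8.29 in control seedlings at 6 h. The MBI600 CFCF arrays of this vicilin probe thus matched either the control or the flg22 level, and the difference in flg22 was -1.86 ± 1.07. The 3 other vicilin probes were dim and averaged 6.29 to 6.64 in control seedlings at 6 h.

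LIN9, which carries a name of the invertase family (enzymes that cleave sucrose), had 7.58 and 7.87 in flg22, 7.89 and 7.68 in MBI600 CFCF and 8.45 and 9.01 in control seedlings at 6 h. LIN9 differed by -1.01 ± 0.20 in flg22 and -0.95 ± 0.20 in MBI600 CFCF. At 24 h LIN9 had 7.04 and 6.88 in flg22, 7.43 and 7.39 in MBI600 CFCF and 7.65 and 7.37 in control seedlings. For SFP5, 1 of 4 probes was a member, with 8.07 and 9.09 in flg22, 9.64 and 9.54 in MBI600 CFCF and 9.55 and 9.92 in control seedlings at 6 h. The other SFP5 probes had smaller differences in flg22, of -0.83 (A_96_P250682), -0.81 (A_96_P085919) and -0.65 (A_96_P029916). The uncharacterized LOC100750252 and LOC101055532 differed by -1.62 and -1.01 in flg22 at 6 h, and by 0.72 and -0.62 at 24 h. The flg22 arrays of LOC100750252 at 24 h were at 6.58 and 8.18, on either side of the control arrays at 6.71 and 6.62. Its control level differed by -1.80 between 24 h and 6 h.

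**Figure D2:**
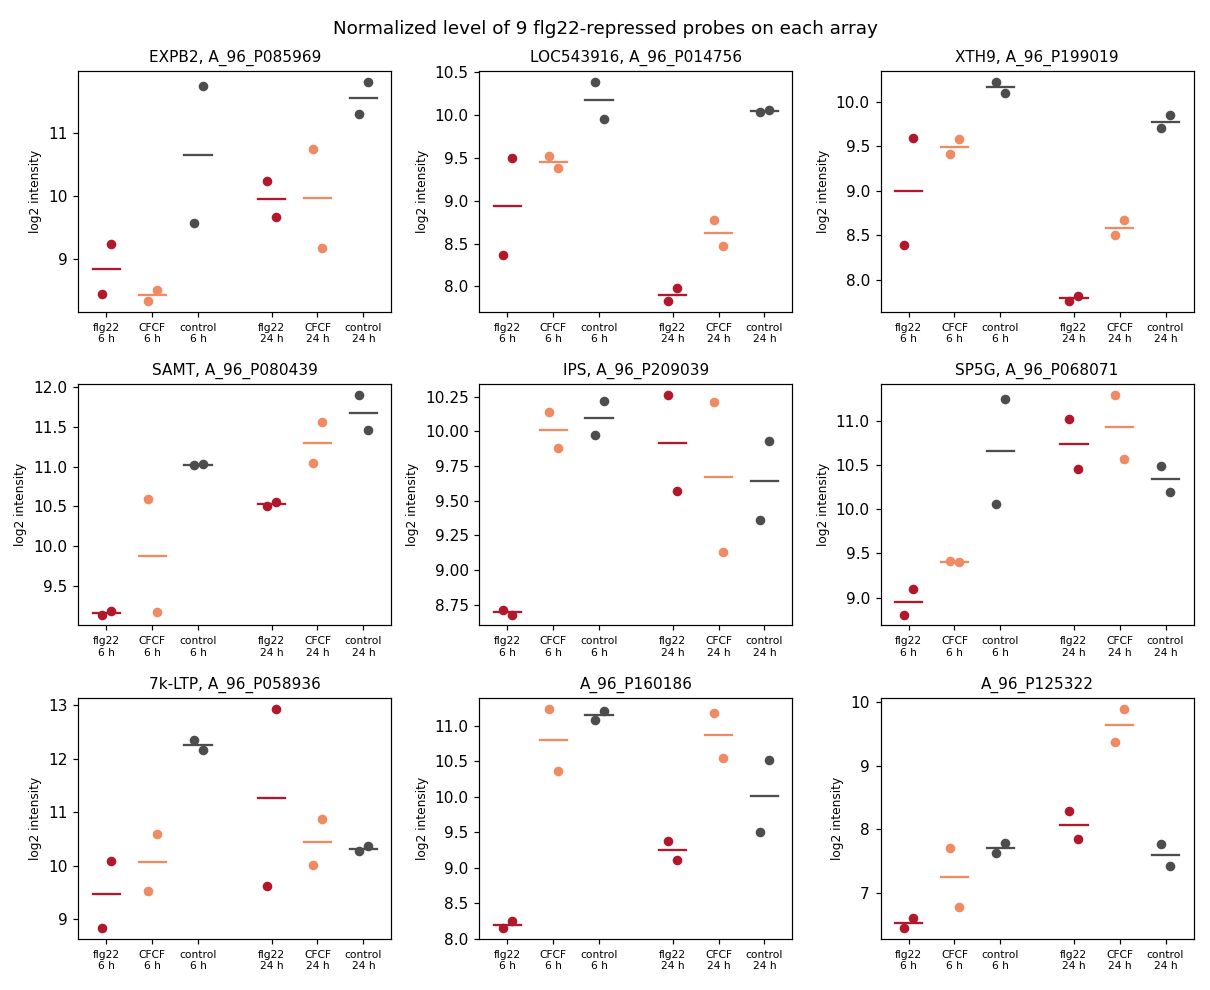
Normalized log2 intensity of 9 member probes on each of the 12 arrays, with 2 points and a line at their mean for flg22, MBI600 CFCF and control seedlings at 6 h and 24 h. LOC543916 and XTH9 were lowest in flg22 at 24 h, SP5G and 7k-LTP were low in both treatments at 6 h, and IPS and A_96_P160186 were lowest in flg22 at 6 h.

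Of the 8 members with a difference of -2 or below, all but 7k-LTP matched no gene. The most negative, A_96_P160186, had 8.15 and 8.25 in flg22, 11.24 and 10.36 in MBI600 CFCF and 11.08 and 11.21 in control seedlings at 6 h, a difference of -2.95 ± 0.38 in flg22 and -0.34 ± 0.38 in MBI600 CFCF. At 24 h A_96_P160186 had 9.38 and 9.11 in flg22, 11.18 and 10.55 in MBI600 CFCF and 9.51 and 10.52 in control seedlings. The flg22 arrays were still lowest, and the MBI600 CFCF arrays were above both controls. This probe and 5 other unmatched ones, grouped after their values were seen, were the 6 called members, with differences of -2.95 to -2.15 in flg22 and -0.60 to -0.29 in MBI600 CFCF at 6 h. At 24 h these 6 probes differed by -1.03 to -0.37 in flg22 and by 0.29 to 1.09 in MBI600 CFCF, and in control seedlings all 6 were lower at 24 h than at 6 h, with differences of -1.19 to -0.96. The second most negative member, A_96_P114952, had 6.91 and 7.22 in flg22, 9.78 and 7.81 in MBI600 CFCF and 9.49 and 10.49 in control seedlings at 6 h. Its difference was -2.92 ± 0.60 in flg22, and its MBI600 CFCF arrays did not lie together.

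In contrast, A_96_P015551, also named after its values were seen, was low at both times of flg22. It had 10.85 and 10.44 in flg22, 11.35 and 11.29 in MBI600 CFCF and 11.94 and 12.15 in control seedlings at 6 h. At 24 h it had 10.82 and 11.10 in flg22, 11.25 and 10.91 in MBI600 CFCF and 12.36 and 12.34 in control seedlings. Its differences from control were -1.39 ± 0.18 at 24 h and -1.40 ± 0.18 at 6 h in flg22, and -1.27 ± 0.18 at 24 h and -0.73 ± 0.18 at 6 h in MBI600 CFCF. The 3 member probes of its sequence name had differences of -1.46 to -1.08 in flg22 at 6 h and of -1.39 to -0.70 at 24 h. Over all 43 unmatched members, 38 were lower in flg22 than in control seedlings at 24 h, 13 of them by 1 or more.

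**Figure D3:**
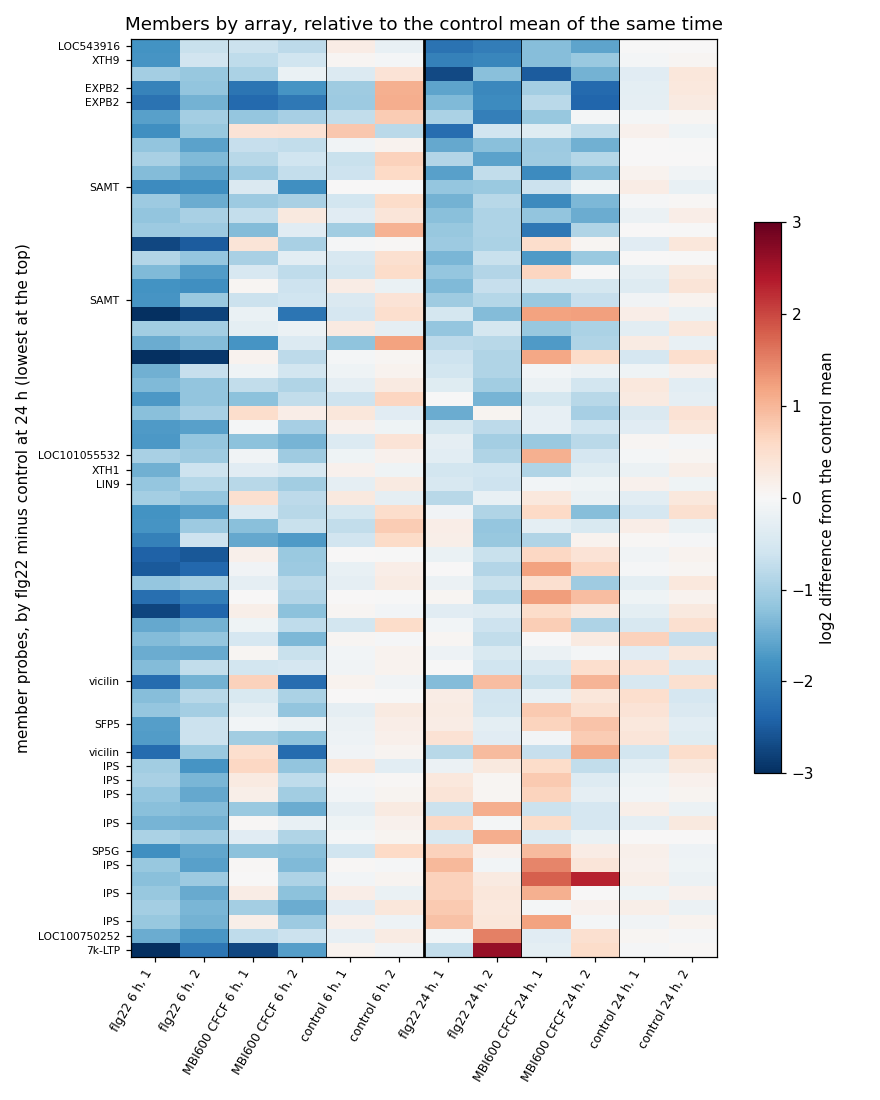
Log2 level of the 65 member probes on each array minus the control mean of the same time, with rows ordered by the flg22 difference at 24 h and matched genes named at the left. The upper rows (LOC543916, XTH9, EXPB2, SAMT) stayed low in flg22 at 24 h. The lowest rows (IPS, SP5G, 7k-LTP) averaged at or above control, with the flg22 arrays of 7k-LTP on either side of it.

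In MBI600 CFCF the members were also on the low side at 6 h. Compared with the control, 63 of the 65 were lower and 2 higher, with a median of -0.63 and a range from -2.23 to 0.43. This comparison shares its control arrays with the selection, for which high control values were chosen, so nothing is read from the direction. The median was -0.26 within slide 2 and -1.12 within slide 3, the 2 slides that held both groups. Both MBI600 CFCF arrays were below both control arrays for 29 of 65 members (15.6% of all probes). No member was called at 6 h of MBI600 CFCF in limma (0% of all probes), where the smallest adjusted p of a member was 0.949, and 14 members were lower at an unadjusted p under 0.05 (1.22% of all probes).

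At 24 h of MBI600 CFCF the members stood on both sides of the control, with 36 lower and 29 higher, a median of -0.12 and a range from -1.95 to 2.05. Both arrays were below both controls for 24 of 65 members (25.8% of all probes) and above them for 11 (24.2%). A difference of -1 or below was found for 13 members, among them EXPB2 (-1.60 and -1.69), LOC543916 (-1.43) and XTH9 (-1.20). A difference of 1 or more was found for 3. None was called in limma (0% of all probes were called lower and 0.00459% higher), the smallest adjusted p of a member being 0.555. At an unadjusted p under 0.05, 14 were lower (3.33% of all probes) and 3 higher (2.86%). The control arrays at 24 h also entered the bound of the selection.

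The MBI600 CFCF arrays at 24 h and 6 h were compared with each other as a measure that the selection did not use. The members had no common direction here. Their median difference was 0.00, as over all probes (-0.001), and 32 were higher and 33 lower at 24 h. Both arrays at 24 h were above both at 6 h for 14 of 65 members (25.7% of all probes) and below them for 15 (26.1%), near the share of the array as a whole. No member was called (0.0115% of all probes were called higher and 0% lower), and at an unadjusted p under 0.05 there were 6 higher and 4 lower (6.24% and 6.91% of all probes). The highest was A_96_P125322, an unmatched probe named after its values were seen, with 9.38 and 9.90 at 24 h against 7.70 and 6.78 at 6 h of MBI600 CFCF. Its difference of 2.40 ± 0.31, with an adjusted p of 0.162, did not pass. On the same probe the flg22 arrays had 8.29 and 7.85 and the control arrays 7.76 and 7.42 at 24 h, so MBI600 CFCF was highest. Among the named genes, the EXPB2 probes were 1.54 ± 0.73 and 1.24 ± 0.69 higher at 24 h (adjusted p 0.394 and 0.442). The SAMT probes were 1.42 ± 0.40 and 0.27 ± 0.31 higher (adjusted p 0.346 and 0.722). LOC543916, XTH9 and XTH1 were lower, by -0.83, -0.91 and -0.67 (adjusted p 0.362, 0.350 and 0.368). The rises of EXPB2 and SAMT were not particular to MBI600 CFCF. Between 6 h and 24 h the EXPB2 probes rose by 0.90 and 0.95 in control and by 1.11 and 0.78 in flg22 seedlings. The SAMT probes rose by 0.66 and 0.57 in control and by 1.37 and 1.04 in flg22 seedlings.

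In control seedlings the members differed by time as well, with a median of -0.39 between 24 h and 6 h, and 45 lower and 20 higher at 24 h. Both 24 h arrays were below both 6 h arrays for 30 of 65 members (16.5% of all probes). LIN9 was at 7.65 and 7.37 at 24 h and at 8.45 and 9.01 at 6 h in control seedlings, a difference of -1.22. As the selection required high control values at 6 h, this direction is not independent of it, and no member was called (0% of all probes, smallest adjusted p 0.394).

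Other genes of growth and of the processes above were counted from lists of gene symbols. Of 111 probes of 45 cell wall genes, 5 were members, no probe was called in flg22 at 6 h, and 7 were lower and 3 higher at an unadjusted p under 0.05, where 1.62% of all probes were lower and 3.22% higher. The 5 members are among the cell wall probes and were chosen as low, so nothing is read from the count of 7. Apart from the EXPB2, LOC543916, XTH9 and XTH1 probes, no cell wall probe was lower by 1 or more. The lists of auxin (58 probes), photosynthesis (93), gibberellin and brassinosteroid (16), cytokinin (10), cell cycle (36), transport (54) and flavonoid and phenylpropanoid genes (26) held no member and no called probe. Their median differences in flg22 at 6 h were -0.04, -0.18, -0.06, -0.03, -0.03, 0.04 and 0.46 in this order. At an unadjusted p under 0.05, 4 of the 93 photosynthesis probes were lower and none higher, and 4 of the 26 flavonoid probes were higher and none lower, beside the same 1.62% and 3.22% of all probes. Of 231 probes of defence signalling genes, none was a member, 3 probes of the lipoxygenase LOX1.1 were called higher in flg22 at 6 h (0.177% of all probes were called higher; 0 of these 3 without the first control array), and 46 of the 231 were higher and 0 lower at an unadjusted p under 0.05 (3.22% and 1.62% of all probes).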

How the data were processed

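The deposited files were the scanner output of 12 Agilent 4x44K arrays, with green and red median spot intensities that the authors had not yet normalized, and a table of log2 values. The authors made the deposited log2 values in limma as single-channel data with normexp background correction (offset 50) and quantile normalization. The same steps on the scans gave these values to within 5e-09. Outlier spots, 1 to 5 per array, were left out for fitting, and spots were averaged per probe. Between 69.8% and 81.7% of spots were well above background, and the number of arrays limits precision.

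Differences were fitted in limma 3.58.1 (R 4.3.3) with 1 mean per group over all 12 arrays, and P values were adjusted by Benjamini-Hochberg over 43603 probes. Calls required an adjusted p under 0.1 together with a log2 change of at least 2. The steps were tested on simulated data. Genes were named through the RefSeq table of assembly SLM_r2.1, of whose 41476 genes 2232 matched a probe by sequence name. Probe counts of a gene are counts of matched probes, and unmatched probes of the same gene may exist. Named are members matched to 1 gene, the 2 most negative members, the probes next to the threshold, members called where the selection was not used, and others only as said. List names were read over for false matches. The members and lists were chosen with earlier results of these data known. Alternatives were other signals, background corrections, normalizations, filters, models, thresholds and each array left out.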

Additional observations from a re-analysis of the deposited data

Results flagged for a closer look

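For 3 member probes with a matched gene and for 3 unmatched ones, the arrays of a treatment were all below control at 6 h and all above it at 24 h. SP5G (A_96_P068071) differed from control by 0.59 at 24 h of MBI600 CFCF, against -1.25 at 6 h. The difference between the 2 times was 1.84, with an adjusted p of 0.620 in limma. In flg22, the IPS probe A_96_P218924 differed by 0.52 at 24 h against -1.32 at 6 h, and the IPS probe A_96_P218879 by 0.62 against -1.27. The unmatched probes A_96_P125322 and A_96_P022276 differed by 0.47 and 0.56 at 24 h of flg22, against -1.18 and -1.20 at 6 h. In MBI600 CFCF, the unmatched probe A_96_P218814 differed by 0.64 at 24 h against -0.75 at 6 h, and the adjusted p of the difference between the times was 0.620 in limma. For these flg22 values, the 6 h difference chose the probes, and the difference between the times was not tested. In flg22, the 5 other IPS probes had arrays that overlapped those of control at 24 h.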

How the results depend on the processing

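Which probes belong to the set depended on the processing. The rule gave 300 probes, the limit, with the scanner's processed signal (62 of the 65 among them) and 111 with a normexp offset of 16 (all 65 among them). Thresholds of -1.5 and -2 gave 20 and 8. Leaving out 1 array gave 61 to 300 probes, the highest without the second control array at 6 h, of which 39 were among the 65. It gave 210 without the second flg22 array and 291 without the first control array at 6 h. All 65 were below control in flg22 at 6 h under each of the 11 alternatives run for this difference. The selection required both flg22 arrays below both control arrays, so leaving out an array or a replicate block could not change this. The other alternatives used the same scans as the selection, so nothing is read from this direction. The 6 calls became 0 when the slide entered the fit. The median at 6 h of flg22 was -1.63 with the processed signal, -1.11 as the ratio of green to red and -1.56 within slide 3, and -1.54 to -1.11 with an array left out. At 24 h of flg22 it was -0.75 with the processed signal and -0.76 within slide 2. At 6 h of MBI600 CFCF it was -0.26 within slide 2, -1.12 within slide 3 and -0.90 to -0.42 with an array left out, the ends being without its first and its second array.

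Between 24 h and 6 h of MBI600 CFCF, the median was -0.19 to 0.29 with an array left out, the highest without the first array at 6 h. The number of members called was 1, A_96_P125322, with the processed signal, an offset of 16, only probes above background or a trended, robust empirical Bayes step. It was 2 by the log2 change alone, 10 at an unadjusted p under 0.05 and 0 to 3 with an array left out, 3 without the first array at 6 h of MBI600 CFCF. Of the listed genes, 3 probes were called in flg22 at 6 h, 7 with the processed signal, 1 with the slide as a term or a single probe per sequence name, 0 in a fit of the groups compared, 6 by the adjusted p alone, 74 at an unadjusted p under 0.05 and 0 to 4 with an array left out, with 1 left without the first flg22 array and 0 without the first control array at 6 h. The causes were not tested.

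With the replicate number as a block, the medians at 6 h were -1.35 for flg22 and -0.63 for MBI600 CFCF. Every group held both replicate numbers, so this block could not move the medians. In flg22, 4 members were called with it. Same-numbered arrays deviated together among the 3 groups at 6 h (correlations of 0.22 to 0.425), whose second arrays shared slide 3, but not over all groups (-0.512 to 0.665). No label states that the numbers pair the samples. Medians at 24 h of MBI600 CFCF and of control seedlings over time moved by less than the spread between replicate arrays under all alternatives run. Slides held few groups in common, so slide and treatment are only partly separable.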
